A study of Mus musculus with 2 samples.

Results

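Antisense noncoding transcripts are RNAs read from the strand opposite to a protein-coding gene, and those described here are the ones that were expressed in the brain of newborn mice. The members are the transcripts whose gene is typed as antisense in the deposited table and whose mean over both libraries was above 0.3 FPKM (fragments per kilobase of transcript, scaled to the library's mapped fragments), on autosomes only and without the imprinted antisense genes *Kcnq1ot1*, *Airn* and *Nespas*. The rule gave 472 transcripts of 364 genes, from 3569 antisense rows and 128603 transcripts in all, and it left out 6 rows above the minimum by gene and 5 by chromosome. Of the 3499 antisense rows open to the rule, 13.5% passed the minimum, against 39.6% of all rows, and 2026 antisense rows stood at the floor of 1e-05 FPKM in both libraries, the value listed in place of 0. At the edge of the rule, *Gm20635*, *1810041H14Rik* and a transcript of *1600020E01Rik* had means of 0.301, 0.301 and 0.302 FPKM, while *B430219N15Rik*, *Gm12953* and *Gm11770* fell outside with 0.298, 0.297 and 0.296 FPKM.

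The maternal knockout, *Mir125b-2* m-/p+, was set against wild type, m+/p+, both on the C57BL/6 background and both taken at postnatal day 0. The knockout is a conventional deletion of the precursor of miR-125b-2 in all cells, carried on the maternal chromosome only, and the labels name no other allele or agent in either group. Each genotype was 1 library of RNA pooled in equal parts from 6 animals, so no error between animals and no test between genotypes can be given, and every difference below compares these libraries. The labels give whole brain as tissue and their protocol names the hippocampus.

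In both libraries, markers of regions outside the hippocampus were present. The hippocampal and dorsal telencephalic list of 5 genes summed to 131 FPKM in maternal knockout and 129 FPKM in wild-type brains, that of the thalamus (2 genes) to 41.4 FPKM (knockout) and 36.2 FPKM (wild type), and that of midbrain and hindbrain (5 genes) to 14.6 FPKM (knockout) and 15.9 FPKM (wild type). Among the 13 regional and cell type lists, none had a marker at the floor, and the summed levels of the neuronal list were 1260 FPKM in knockout brains, against 1244 FPKM in wild-type brains. In such bulk RNA, fewer cells that express a transcript and less of it per cell cannot be told apart. *Mir125b-2* itself (chr16:77646273-77646343) was listed at the floor in both libraries, so the precursor row checks neither label. Its host transcripts *Mir99ahg* summed to 35.7 FPKM in maternal knockout brains and 28.1 FPKM in wild-type brains.

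Antisense RNAs often start close to the start of a coding gene on the other strand, where divergent promoters, many of them rich in CpG, fire both ways. Others begin within the coding gene or past its end and run back over it. Some are known to act on their neighbours in cis, others host small RNAs, and for many no function is known. In the developing brain, antisense RNAs at homeobox loci such as *Dlx1* and *Dlx6* are made in the ventral forebrain together with these genes.

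To show what the start sites of these RNAs look like, 6 windows of 300 bases are given, each from 250 bases before to 50 bases after the RefSeq start of the antisense gene (GRCm38.p6, read 5′ to 3′ on the antisense strand, CpG dinucleotides in capitals). They were picked after their values were seen: the start sites of *Snhg9* and *Rab26os*, the most abundant members, of *2900093K20Rik*, which exceeded its coding partner, of *Atad3aos* and *Kcnmb4os2*, whose transcripts differed between the libraries, and of *9130221H12Rik*, which had few CpGs.
Snhg9 (chr17:24719916-24720215, - strand): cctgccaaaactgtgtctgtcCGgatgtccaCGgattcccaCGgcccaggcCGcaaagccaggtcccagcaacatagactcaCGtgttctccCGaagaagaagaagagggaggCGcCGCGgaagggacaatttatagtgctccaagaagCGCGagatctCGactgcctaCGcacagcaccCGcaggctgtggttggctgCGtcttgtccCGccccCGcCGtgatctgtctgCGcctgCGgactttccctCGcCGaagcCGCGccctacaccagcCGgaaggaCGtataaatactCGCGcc
Rab26os (chr17:24528001-24528300, + strand): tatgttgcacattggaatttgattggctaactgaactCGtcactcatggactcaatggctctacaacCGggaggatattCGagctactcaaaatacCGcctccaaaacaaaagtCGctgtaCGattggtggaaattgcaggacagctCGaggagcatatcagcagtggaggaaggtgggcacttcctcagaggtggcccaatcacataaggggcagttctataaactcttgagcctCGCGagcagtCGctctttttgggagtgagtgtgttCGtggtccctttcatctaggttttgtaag
2900093K20Rik (chr2:163419521-163419820, + strand): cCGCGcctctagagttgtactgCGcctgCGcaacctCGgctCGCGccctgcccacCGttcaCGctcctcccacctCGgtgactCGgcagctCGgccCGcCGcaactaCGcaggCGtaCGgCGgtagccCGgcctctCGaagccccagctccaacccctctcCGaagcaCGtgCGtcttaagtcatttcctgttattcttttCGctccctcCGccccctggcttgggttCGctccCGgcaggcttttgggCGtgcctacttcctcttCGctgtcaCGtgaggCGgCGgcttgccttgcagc
Atad3aos (chr4:155760942-155761241, + strand): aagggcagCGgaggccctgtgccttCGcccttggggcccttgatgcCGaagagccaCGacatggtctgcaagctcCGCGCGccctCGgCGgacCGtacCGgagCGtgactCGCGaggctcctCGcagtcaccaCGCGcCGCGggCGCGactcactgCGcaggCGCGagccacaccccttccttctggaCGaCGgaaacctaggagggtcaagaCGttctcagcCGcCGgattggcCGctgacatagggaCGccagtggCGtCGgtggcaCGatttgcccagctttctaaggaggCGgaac
Kcnmb4os2 (chr10:116472913-116473212, + strand): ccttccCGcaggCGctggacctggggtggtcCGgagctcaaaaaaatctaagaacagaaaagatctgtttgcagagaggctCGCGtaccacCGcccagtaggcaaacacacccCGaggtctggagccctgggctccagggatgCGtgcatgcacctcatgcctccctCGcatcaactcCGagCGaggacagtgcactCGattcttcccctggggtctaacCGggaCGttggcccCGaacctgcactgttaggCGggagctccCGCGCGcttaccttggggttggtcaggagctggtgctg
9130221H12Rik (chr7:25228473-25228772, + strand): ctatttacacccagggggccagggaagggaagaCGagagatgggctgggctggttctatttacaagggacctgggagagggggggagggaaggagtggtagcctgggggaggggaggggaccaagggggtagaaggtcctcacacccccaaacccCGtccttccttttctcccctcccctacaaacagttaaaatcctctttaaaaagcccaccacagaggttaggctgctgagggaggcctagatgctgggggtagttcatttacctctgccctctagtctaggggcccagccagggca
The windows held 28 CpGs in *Snhg9*, 11 in *Rab26os*, 32 in *2900093K20Rik*, 35 in *Atad3aos*, 19 in *Kcnmb4os2* and 2 in *9130221H12Rik*. Those of *Snhg9*, *2900093K20Rik* and *Atad3aos* also contained the 5′ end of an expressed coding transcript of the other strand, from *Rps2*, *Oser1* and *Atad3a*.

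A RefSeq window whose start lay within 50 bases of the member's 5′ end was found for 121 members, which share 108 windows. The windows held 2 to 52 CpGs with a median of 21.5, against a median of 7 over all 32851 RefSeq windows, 13 over the 21263 windows of protein-coding genes and 4 over the 11588 windows of lncRNA genes. These RefSeq sets include genes whatever their expression, while every member was above the FPKM minimum. The part of expression in this difference was not tested. CpGs were more frequent where a coding gene started head to head in the same window. The 43 windows with such a 5′ end had a median of 29 CpGs, and the 65 windows without one a median of 17. By arrangement, with each distinct window counted once under its most abundant member, the median was 19 over 43 windows of divergent members, 17.5 over 20 windows of members inside the partner, 27 over 17 windows of convergent members and 30 over 25 windows of members with no overlap. The remaining windows belonged to members that span the partner. Arrangement refers to 1 coding partner alone, so a convergent member can still start near the 5′ end of another coding transcript. An expressed coding 5′ end of the other strand lay within 1 kb of the start in 64.8% of convergent members. The share was 85.0% of divergent members, 38.1% of those inside the partner and 64.0% of those with no overlap.

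**Figure D1:**
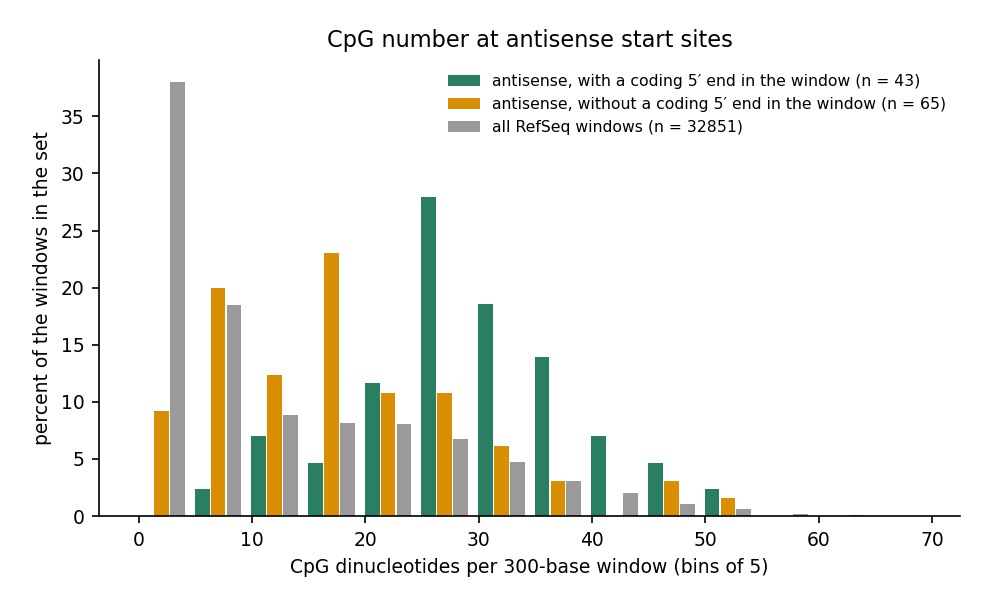
Number of CpG dinucleotides per 300-base RefSeq window (x axis, bins of 5) and the percent of windows in each bin (y axis), for antisense members with a coding 5′ end of the other strand in the window (43 windows), those without one (65) and all 32851 RefSeq windows. The bars of the windows with a coding 5′ end lie furthest right, with a median of 29 CpGs against 17 without one and 7 over all windows. The set of all windows was not limited to expressed genes.

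Letter patterns of promoters were searched in these windows on both strands. GGGCGG, the core of the GC box, was present in 63.9% of the 108 windows, against 35.7% of all RefSeq windows and 46.2% of those of protein-coding genes. CCAAT was present in 38.9%, close to the 37.4% of all windows. TATAAA was present in 4.63%, against 13.6% of all windows. The groups differed: TATAAA was in 20% of the 20 windows of members inside the partner, among them those of *Snhg9* and *Rab26os*. It was in 2.33% of the 43 divergent windows and 0% of the convergent and no-overlap ones. GGGCGG was in 79.1% of windows with a coding 5′ end and 53.8% of those without one. The RefSeq sets were again not limited to expressed genes, as the members were. Members with a RefSeq entry are the better known ones, and a letter match is no evidence of a bound factor.

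The members were low in abundance. Their median was 0.755 FPKM in maternal knockout and 0.738 FPKM in wild-type brains, and the median of their means was 0.715 FPKM, against 1.68 FPKM over all 50873 transcripts above the same minimum. Summed over members, the libraries had 809 FPKM in knockout brains, against 804 FPKM in wild-type brains. In the annotation (GENCODE M21, 470 members found) they were 183 to 8927 bases long with a median of 952, and 97 had 1 exon, 232 had 2 and the others up to 9.

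*Snhg9*, a small nucleolar RNA host gene, was the most abundant member (chr17:24719531-24719965). It had 118 FPKM in maternal knockout brains and 116 FPKM in wild-type brains, a ratio of 1.02. It lies inside the locus of *Rps2*, a protein of the small ribosomal subunit, which had 721 FPKM in maternal knockout and 693 FPKM in wild-type brains. At 183 bases *Snhg9* is also the shortest member.

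*Rab26os* (chr17:24528248-24528744) had 38.6 FPKM in knockout brains, against 43.1 FPKM in wild-type brains in its main transcript of 298 bases. Another transcript, with 1 exon, had 4.02 FPKM (knockout) and 3.32 FPKM (wild type). The coding gene around it, *Rab26*, a small GTPase of secretory and synaptic vesicles, had only 2.79 FPKM in maternal knockout brains and 2.38 FPKM in wild-type brains. The nearest coding 5′ end on the other strand, that of *Traf7*, was 310 bases from the start of the main transcript.

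The remaining members among the 12 most abundant spanned homeobox, protease and housekeeping loci. *Dlx1as* (chr2:71532784-71537891), opposite the interneuron homeobox gene *Dlx1*, had 14.3 FPKM in maternal knockout and 15.1 FPKM in wild-type brains, and *Dlx1* had 23.6 FPKM (knockout) and 21.1 FPKM (wild type). *Gm16536* lies inside *Bace1*, which encodes β-secretase, and had 11.8 FPKM in knockout brains, against 11.97 FPKM in wild-type brains. *Gt(ROSA)26Sor*, the locus used as a harbour for transgenes in mice, had 10.1 FPKM in maternal knockout brains and 10.5 FPKM in wild-type brains.

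Within this most abundant group, the libraries stood furthest apart at *BC051226* and *2810001G20Rik*. *BC051226*, which starts 128 bases from the histone chaperone gene *Daxx*, had 12.7 FPKM in maternal knockout and 8.52 FPKM in wild-type brains, a ratio of 1.49. *2810001G20Rik*, which starts 16 bases from *Cox10*, which is needed to assemble cytochrome c oxidase, had 12.9 FPKM in knockout brains, against 9.9999 FPKM in wild-type brains, a ratio of 1.29. The others (*B230334C09Rik*, *Tmem147os*, *Gm2415*, *1600020E01Rik* and *Dlx6os1*) had ratios from 0.961 to 1.16. *Dlx6os1*, known in mouse as *Evf2* and as a regulator of *Dlx5* and *Dlx6*, had 9.94 FPKM in maternal knockout brains and 8.56 FPKM in wild-type brains in the transcript of 4446 bases, and 5.39 FPKM (knockout) and 4.84 FPKM (wild type) in that of 4608 bases.

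**Figure D2:**
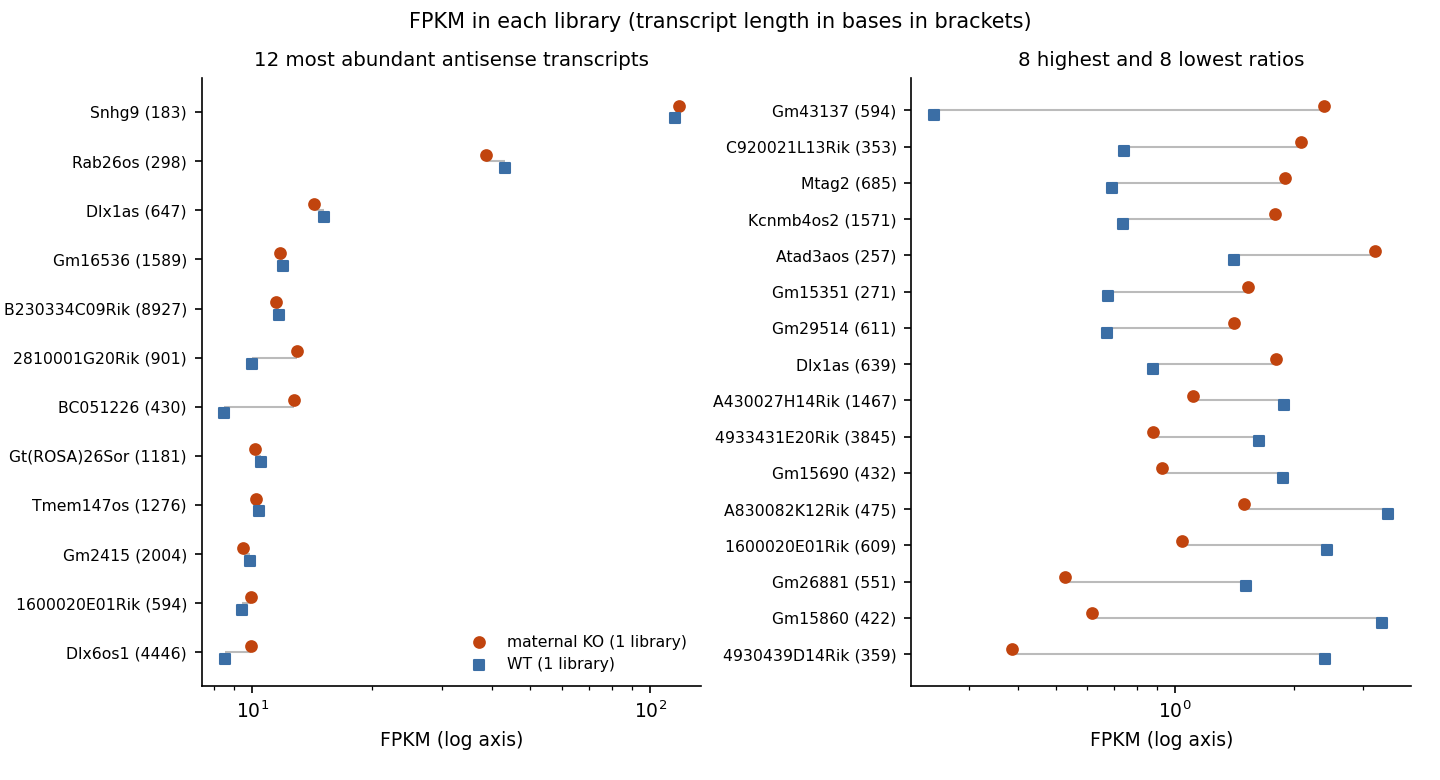
FPKM on a log axis in the maternal knockout library (circles) and the wild-type library (squares) for the 12 most abundant members (left panel) and for the 8 highest and 8 lowest ratios among members with a mean of at least 1 FPKM (right panel), with the transcript length in bases after each symbol. In the left panel the symbols of both libraries nearly coincide except for *BC051226* and *2810001G20Rik*, and in the right panel *Gm43137* shows the widest gap, with 2.39 FPKM in maternal knockout and 0.245 FPKM in wild-type brains.

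To ask whether the maternal deletion goes with a shift of antisense RNAs, the ratio of maternal knockout to wild type was taken for each member. A ratio above 2 was found for 43 members (9.11%), where 9.43% of all transcripts above the minimum passed it. A ratio below 0.5 was found for 42 members (8.90%), where 8.93% of all transcripts passed it. Both shares were at the background when all levels were pooled. Members were rarer than all transcripts, and in each range of abundance given below a smaller share of members than of all transcripts passed. Among rows of protein-coding genes 9.42% were above 2-fold and 8.93% below 0.5-fold. Among lincRNA rows, the long noncoding RNAs between genes, 8.15% were above 2-fold and 8.29% below 0.5-fold. The median log2 ratio, after adding 0.1 FPKM to both values, was 0.0055 over members and 0.0057 over all transcripts, and 237 members lay above 0 and 235 below. Within 1.2-fold were 194 members (41.1%), against 47.3% of all transcripts.

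Ratios past either fold were most frequent among rare and short members, as they were among all transcripts. In members with a mean from 0.3 to 1 FPKM, 35 of 293 were above 2-fold (11.9%) and 36 below 0.5-fold (12.3%), against 18.6% and 18.8% of all transcripts of that range. With a mean from 1 to 5 FPKM, 8 of 155 (5.16%) and 6 of 155 (3.87%) passed, against 6.70% and 5.38% of all transcripts. None of the 24 members with at least 5 FPKM passed either fold, against 1.17% and 1.13% of all transcripts. Among the 78 members shorter than 500 bases, 15 (19.2%) were above 2-fold and 19 (24.4%) below 0.5-fold, against 23.8% and 23.2% of all transcripts of that length. Among the 165 members of 500 to under 1000 bases, 22 (13.3%) were above and 17 (10.3%) below, against 14.5% and 13.2% of all. Among the 227 members of at least 1000 bases, 6 were above and 6 below (2.64% each), against 4.94% and 4.82% of all. The part of abundance and length in the ratios was not tested.

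**Figure D3:**
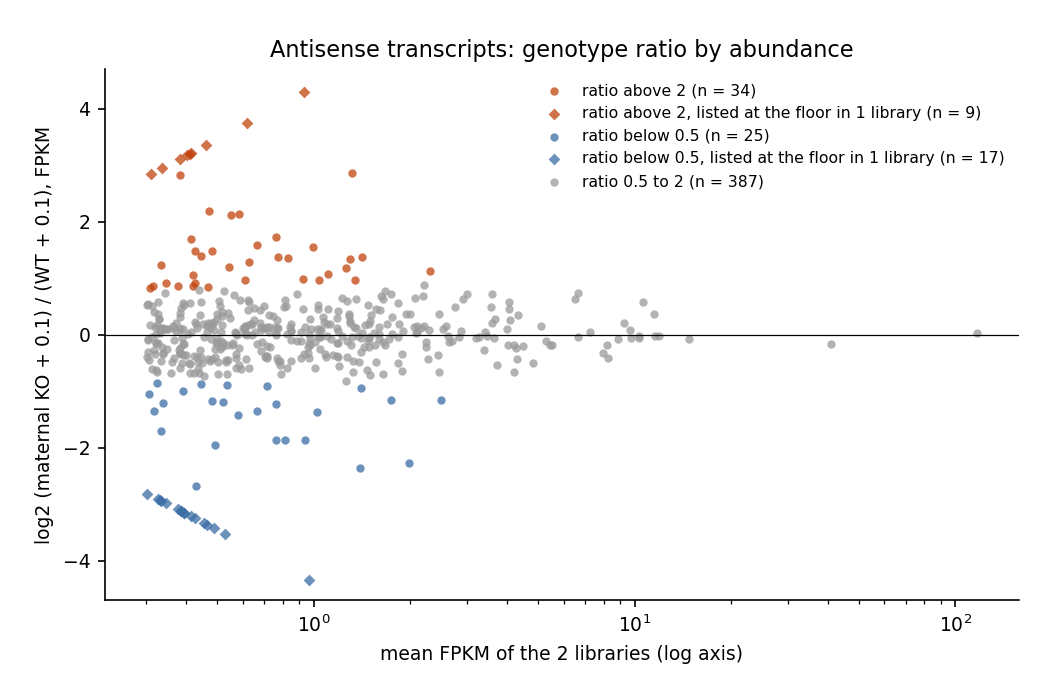
Log2 ratio of maternal knockout to wild type with 0.1 FPKM added to both (y axis) against the mean FPKM of both libraries on a log axis (x axis) for the 472 members. Colours mark a ratio above 2 (43 members), below 0.5 (42) or between, and diamonds the members listed at the floor in 1 library. The spread narrows from left to right, and no coloured point lies at or beyond 5 FPKM.

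The highest ratio among members with a mean of at least 1 FPKM was that of *Gm43137* (chr5:110230608-110231201), a transcript of 594 bases with 1 exon. It had 2.39 FPKM in knockout brains, against 0.245 FPKM in wild-type brains, a ratio of 9.75. Its 5′ end lies 38 bases from a 5′ end of *Ankle2*, which had 11.9 FPKM in maternal knockout brains and 9.87 FPKM in wild-type brains. *Gm43137* was chosen by its ratio, and *Ankle2* is a gene sum at a higher level, so the wider gap of the transcript is a description only.

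*C920021L13Rik* had 2.09 FPKM in maternal knockout and 0.742 FPKM in wild-type brains in its transcript of 353 bases, a ratio of 2.82. Summed over its 3 transcripts the gene had 2.29 FPKM (knockout) and 1.19 FPKM (wild type), a ratio of 1.92. It starts 12 bases from a 5′ end of *Mrps21*, a mitochondrial ribosomal protein. *Mtag2*, opposite the presynaptic liprin gene *Ppfia3*, had 1.90 FPKM in knockout brains, against 0.691 FPKM in wild-type brains in a transcript of 685 bases, a ratio of 2.75. Another *Mtag2* transcript, which starts upstream of the *Ppfia3* 5′ end, had 1.41 FPKM in maternal knockout brains and 1.54 FPKM in wild-type brains.

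*Kcnmb4os2* lies at the start of *Kcnmb4*, which encodes a β subunit of the BK potassium channel. Its transcript of 1571 bases had 1.79 FPKM in maternal knockout and 0.737 FPKM in wild-type brains, a ratio of 2.43. Its other transcripts had 2.78 and 1.37 FPKM in the maternal knockout, against 2.14 and 1.60 FPKM in wild type. *Kcnmb4* had 24.6 FPKM in knockout brains, against 24.5 FPKM in wild-type brains.

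*Atad3aos* starts head to head with *Atad3a*, a mitochondrial inner membrane ATPase, within the window printed above. Its transcript of 257 bases had 3.21 FPKM in maternal knockout brains and 1.41 FPKM in wild-type brains, a ratio of 2.28. The transcripts of 650 and 971 bases had 1.02 and 0.494 FPKM in the maternal knockout, against 0.154 and 0.652 FPKM in wild type. Summed over the gene, *Atad3aos* had 4.91 FPKM in maternal knockout and 2.21 FPKM in wild-type brains, a ratio of 2.22, and it had the highest mean of all antisense genes past 2-fold. *Gm15351* inside *Mcf2l*, *Gm29514* at *Brinp3* and the short transcript of *Dlx1as* completed the 8 highest, with ratios of 2.27, 2.099 and 2.06 in 1 transcript each. The gene sums of *Gm15351*, *Gm29514* and *Dlx1as* had ratios of 1.41, 1.90 and 0.991.

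Among members with a mean of at least 1 FPKM, *4930439D14Rik* (chr1:156939838-156940196) had the lowest ratio. This transcript of 359 bases has 1 exon, and its 5′ end lies 212 bases from *Ralgps2*. It had 0.386 FPKM in knockout brains, against 2.41 FPKM in wild-type brains, a ratio of 0.160. *Gm15860*, opposite the start of *Bcl7a*, a subunit of the BAF chromatin remodelling complex, had 0.616 FPKM in maternal knockout brains and 3.34 FPKM in wild-type brains, a ratio of 0.184. *Bcl7a* had 19.3 FPKM in maternal knockout and 20.04 FPKM in wild-type brains.

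*Gm26881*, opposite the start of *Fam214b*, had 0.528 FPKM in knockout brains, against 1.52 FPKM in wild-type brains, in its less abundant member, a ratio of 0.348. Its other member had 2.25 FPKM (knockout) and 2.06 FPKM (wild type), and the gene summed to 2.80 FPKM in maternal knockout and 3.58 FPKM in wild-type brains, a ratio of 0.782. Transcripts of *1600020E01Rik* at the RNA-binding protein gene *Pcbp1* and of *A830082K12Rik* at the cortical patterning gene *Nr2f1* had ratios of 0.428 and 0.431, and *Gm15690* had 0.492. The *4933431E20Rik* transcript of 3845 bases came next, with 0.881 FPKM in maternal knockout and 1.63 FPKM in wild-type brains. *A430027H14Rik*, inside the leak potassium channel gene *Kcnk2*, had 1.11 FPKM in maternal knockout brains and 1.88 FPKM in wild-type brains, a ratio of 0.591. *Kcnk2* had 11.04 FPKM in maternal knockout and 12.5 FPKM in wild-type brains.

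Some members were listed at the floor in a single library, 17 in the maternal knockout and 9 in wild type. Each of them passed the minimum through the other library alone, so a wide gap follows from the rule. The same share over all transcripts was not taken, and these counts are a description. The most abundant of them was the *Gm4876* transcript of 390 bases, which was at the floor in the maternal knockout and had 1.93 FPKM in wild type, while the *Gm4876* transcript of 422 bases had 1.24 FPKM in the maternal knockout and was at the floor in wild type. The member of *Proscos*, a transcript of 616 bases opposite the start of the pyridoxal phosphate-binding protein gene *Prosc*, had 1.87 FPKM in the maternal knockout and was at the floor in wild type. With its other transcript, *Proscos* summed to 1.87 FPKM in knockout brains, against 0.508 FPKM in wild-type brains, a ratio of 3.67. The member of *Evx1os*, a transcript of 365 bases at the homeobox gene *Evx1*, was at the floor in the maternal knockout and had 1.06 FPKM in wild type. *Evx1os* summed to 0.114 FPKM in maternal knockout and 1.2985 FPKM in wild-type brains over both transcripts, and *Evx1* had 0.402 FPKM in knockout brains, against 0.396 FPKM in wild-type brains. *Gm17098* at the γ-secretase gene *Aph1c* and *Gm42984* at *Tapt1* were also at the floor in the maternal knockout, with 0.974 and 0.926 FPKM in wild type.

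Several antisense genes differed between transcripts but not in sum. More than 1 member was found in 72 of the 364 genes, and 35 of the 85 members past either fold belonged to genes whose summed FPKM was not. Transcripts above 2-fold and below 0.5-fold occurred together in *A830082K12Rik*, *Gm4876*, *Gm10244* and *Gm9885*. *Gm4876* summed to 2.96 FPKM in maternal knockout brains and 2.92 FPKM in wild-type brains.

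*Gm9885*, inside the neurotrophin receptor gene *Ntrk3*, is an example, and was picked after its values were seen. Its transcripts share the start at 78578830 on chromosome 7 and end at 78581034 and 78581038, and they are 2205 and 2209 bases long. The shorter was at the floor in the maternal knockout and had 0.849 FPKM in wild type, and the longer had 0.747 FPKM in maternal knockout and 0.0189 FPKM in wild-type brains. In sum the gene had 0.747 FPKM in knockout brains, against 0.868 FPKM in wild-type brains, a ratio of 0.860.

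*A830082K12Rik*, with 7 members, runs away from the start of *Nr2f1*, whose product patterns the cortex. Its transcript of 475 bases had 1.498 FPKM in maternal knockout brains and 3.48 FPKM in wild-type brains, that of 418 bases had 1.05 FPKM (knockout) and 0.280 FPKM (wild type), and the main one of 2203 bases had 4.19 FPKM (knockout) and 4.81 FPKM (wild type). Summed, it had 11.1 FPKM in maternal knockout and 11.98 FPKM in wild-type brains, a ratio of 0.929. *E130307A14Rik*, at the start of the DNA polymerase ζ gene *Rev3l*, had 8 members, the most of any gene, and summed to 35.1 FPKM in knockout brains, against 36.6 FPKM in wild-type brains.

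Of the gene sums, 21 (5.77%) were above 2-fold, where 3.03% of all genes above the minimum were, and 29 (7.97%) were below 0.5-fold, where 3.13% of all genes were. By abundance the comparison differed. In the range from 0.3 to 1 FPKM, 8.16% of 196 antisense genes were above 2-fold and 11.7% below 0.5-fold, against 10.3% and 11.2% of all genes in that range. In the range from 1 to 5 FPKM, 3.55% of 141 antisense genes were above and 4.26% below, against 2.61% and 2.31% of all genes, and of the 27 antisense genes over 5 FPKM none passed, against 0.773% and 0.812% of all. With a summed mean above 1 FPKM, the 5 above 2-fold were *Atad3aos*, *Nr6a1os*, *Gm43137*, *Proscos* and *Gm15952*. The 6 below 0.5-fold were *Gm15860*, *Gm15690*, *4930439D14Rik*, *Etaa1os*, *Gm17690* and *4930481A15Rik*. *Etaa1os*, which starts 129 bases from the replication stress gene *Etaa1*, summed to 0.658 FPKM in maternal knockout brains and 1.66 FPKM in wild-type brains.

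To relate the members to the genes opposite, each was set against the protein-coding rows of the other strand that share at least 1 base with it by locus. A coding gene was found for 361 members (76.5%), covering 300 coding genes, and none for 111. Where several coding genes overlapped, as for 42 members, the one with the highest summed FPKM was taken as the partner. *BC037039*, in the protocadherin γ cluster, overlapped 22 coding genes, which share exons there. In the annotation, an exon of 294 members lay over an exon of a coding gene, with 177 over a 5′UTR, 178 over coding sequence and 75 over a 3′UTR, some of them over more than one of these.

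Head-to-head pairs were the most frequent arrangement. The 5′ ends lay inside the overlap (divergent) in 173 members (36.7%), the member lay wholly inside the partner in 105 (22.2%), the 3′ ends lay inside the overlap (convergent) in 71 (15.0%), and the member spanned the partner in 12 (2.54%). The start of a member lay within 1 kb of the 5′ end of an expressed coding transcript of the other strand in 311 cases (65.9%), with a median distance of 462 bases over members. Among 705 autosomal lincRNA rows above the minimum the share was 22.7% and the median distance 49669 bases. Position is part of how the antisense class was annotated, so this difference describes the class. Even of the 111 members with no overlap, 71 started within 1 kb of such a coding 5′ end.

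A ratio past either fold was found for 18.4% of all transcripts above the minimum. Among members the share was 17.3% for divergent ones, 23.8% for those inside the partner, 9.86% for convergent ones and 19.8% for those with no overlap. Median lengths in these groups were 1285, 809, 1111 and 664.5 bases and their median means 0.622, 0.619, 0.940 and 0.967 FPKM, and the part of length and abundance in these shares was not tested. Median log2 ratios were 0.032, −0.069, −0.019 and 0.018.

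Most members were a small share of the coding gene opposite. Over the 332 members whose partner had a mean above 0.3 FPKM, covering 279 partner genes, the member's FPKM was 6.17% of the partner's summed FPKM at the median and 0.267% to 1583% at the extremes. Below 1% were 25 members, 172 were at 1 to 10%, 115 at 10 to 100%, and 20 were more abundant than the partner. These 20 are transcripts, and some share a gene. Several are transcripts of *E130307A14Rik*, at up to 1082% of *Traf3ip2*, and others are those of *Rab26os*, at 1583% and 142% of *Rab26*. Counting partners at or under the minimum too, 49 members exceeded the partner. Across the 332 pairs the log2 levels had a Pearson r of 0.030 and a Spearman rank correlation of 0.029. These points share the same libraries, some pairs share a partner, and all members lie above a minimum, so the values are a description.

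Members above their partner, among partners with a mean of at least 1 FPKM, were led by *Rab26os* at 1583% of *Rab26*. *Gm2415*, whose 5′ end lies 2 bases from a 5′ end of the phosphatase gene *Ctdspl*, had 9.51 FPKM in maternal knockout and 9.90 FPKM in wild-type brains, and *Ctdspl* had 3.85 FPKM (knockout) and 4.49 FPKM (wild type). *2900093K20Rik* had 8.36 FPKM in knockout brains, against 4.95 FPKM in wild-type brains, while *Oser1* around it had 4.35 FPKM (knockout) and 4.50 FPKM (wild type). The ratio of 1.69 of the antisense transcript thus stood beside nearly equal values of the coding gene.

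*Gm45763* inside *Exoc3l* and the longer *Dlx6os1* transcript, which spans *Dlx6*, were at 122% and 112% of their partners. *Dlx6* had 3.90 FPKM in maternal knockout brains and 5.26 FPKM in wild-type brains. *Gm27199*, at the start of the LIM homeobox gene *Lhx5*, had 3.84 FPKM in maternal knockout and 3.33 FPKM in wild-type brains, and *Lhx5* had 4.06 FPKM (knockout) and 3.30 FPKM (wild type). *Gm15417* at *Zbtb7b* was at 93.7% of its partner.

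**Figure D4:**
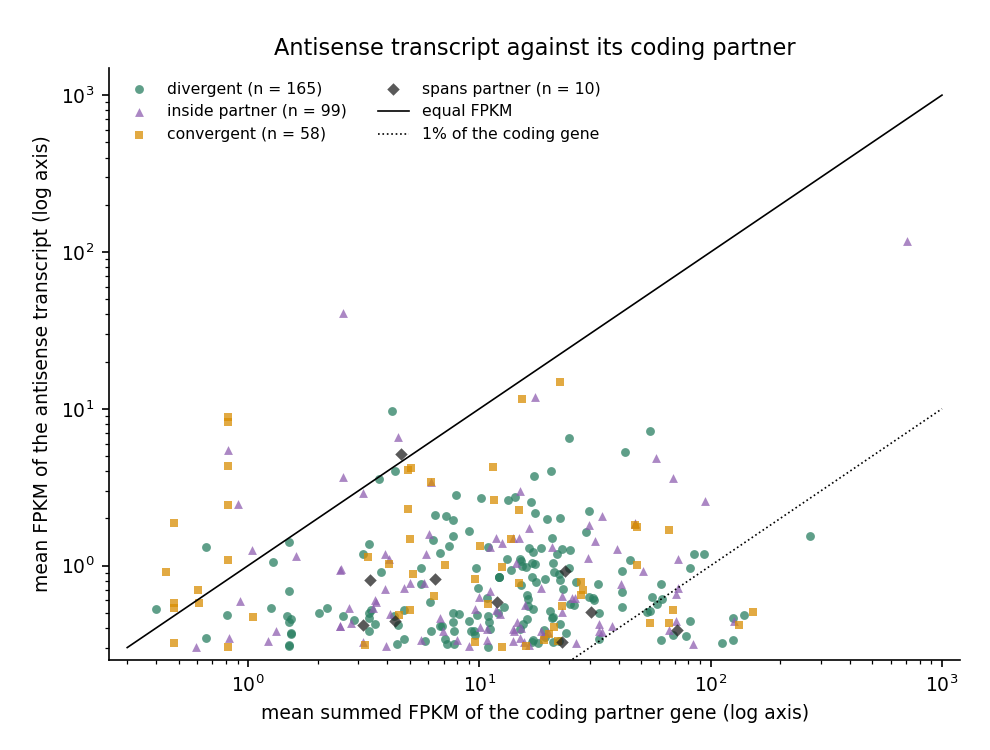
Mean FPKM of the member (y axis) against the mean summed FPKM of its coding partner (x axis), both log axes, for the 332 members whose partner was above 0.3 FPKM, marked by arrangement. The solid line marks equal FPKM and the dotted line 1% of the partner. Most points lie between the lines, 20 lie above the solid line and 25 below the dotted one.

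Antisense rows opposite the strongest coding genes, members or not, were mostly a very small share of the partner. Of 194 antisense rows whose partner had at least 50 FPKM, 88 were at the floor in both libraries and 118 were under 0.1% of the partner. The median was 0.0183% of the partner, and 38 of the rows were members. Of all 3499 antisense rows open to the rule, 2026 were at the floor in both libraries and 472 were members. A partner of at least 50 FPKM by itself makes these percents small. The part of reads from the coding strand in the values of these members was not tested.

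The coding partners hardly differed between the libraries. Of the 279 partner genes above the minimum, 244 (87.5%) were within 1.2-fold, against 80.6% of all 14431 coding genes above the minimum. Partner genes had a median mean of 12.5 FPKM and all coding genes one of 9.18 FPKM. A partner sum was above 2-fold in 1 gene, *Agrp*, and below 0.5-fold in 2, *Traf3ip2* and *Grid2ip*, named here after their values were seen. Over all 19244 genes of any type above the minimum, 3.03% were above 2-fold and 3.13% below 0.5-fold. These shares were not taken over coding genes alone or by abundance of the partners. *Traf3ip2*, opposite transcripts of *E130307A14Rik*, had 0.367 FPKM in maternal knockout and 1.28 FPKM in wild-type brains. *Agrp*, a hypothalamic feeding peptide, had 1.02 FPKM in knockout brains, against 0.198 FPKM in wild-type brains, and *Gm38250* opposite had 0.730 FPKM (knockout) and 0.664 FPKM (wild type). The other hypothalamic markers did not share this difference. *Hcrt* had 0.781 FPKM (knockout) and 2.02 FPKM (wild type), and *Pmch* had 4.29 FPKM (knockout) and 4.02 FPKM (wild type).

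No pair had both the member and the partner past 2-fold or 0.5-fold. With 1 of the 279 partner genes above 2-fold and 2 below 0.5-fold, few pairs could have had both. Of the 60 members past either fold with a partner above the minimum, 53 had a partner within 1.2-fold. That share is near the 87.5% of all partner genes within 1.2-fold, so it sets these members apart from no others. Among the other 7 partners, picked after their values were seen, the libraries stood furthest apart at *Ikbke*, with 0.582 FPKM in maternal knockout brains and 1.07 FPKM in wild-type brains, opposite *Gm28913*, which was at the floor in the maternal knockout and had 0.691 FPKM in wild type. Members and partners had log2 ratios of the same sign in 152 of 332 pairs (45.8%), and over these pairs the log2 ratios had a Pearson r of 0.045 and a Spearman rank correlation of −0.067, again as a description.

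**Figure D5:**
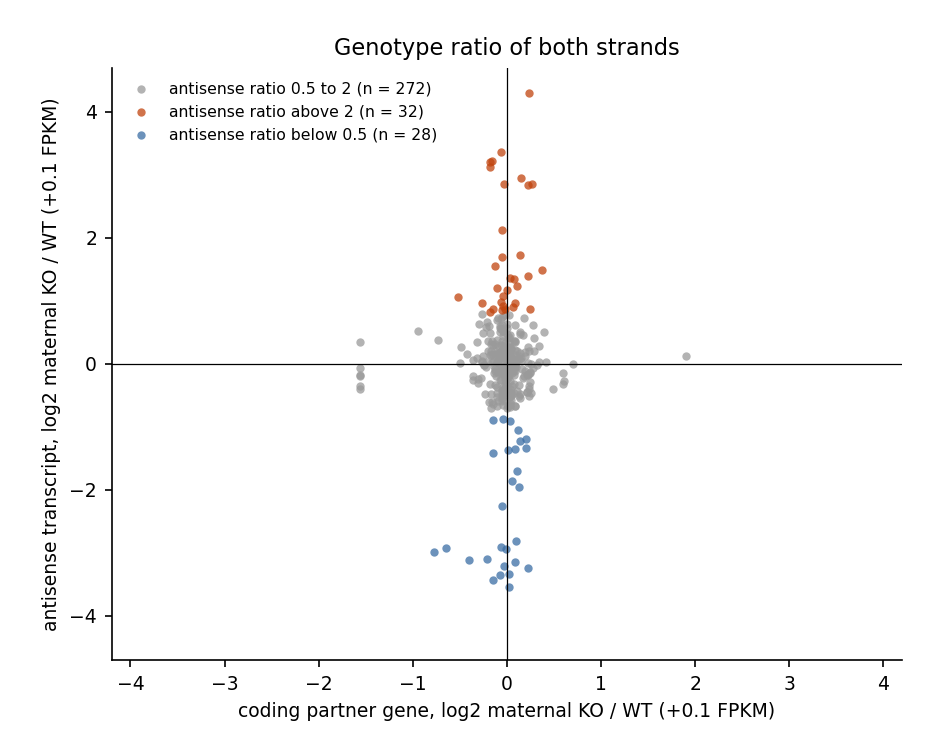
Log2 ratio of maternal knockout to wild type, with 0.1 FPKM added, of the member (y axis) against that of the summed coding partner (x axis) for 332 pairs on equal axes, coloured by the member's ratio. The points form a vertical band, with wide ratios on the antisense side and 244 of the 279 partner genes within 1.2-fold.

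The partners were grouped by gene name patterns. Of the 10 lists, transcription factors of development had the highest share of genes opposite a member, with 16 of 229 expressed genes of that list (6.99%), against 1.93% of all expressed coding genes. They faced 20 members, of which 1 was above 2-fold and 2 below 0.5-fold, where 9.43% and 8.93% of all transcripts were, with a median log2 ratio of 0.15 against 0.0055 over all members. The members were at 19.0% of the partner at the median.

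Within this group, *Zfhx2os* and *Gm20687*, opposite the zinc finger homeobox gene *Zfhx2*, had 3.07 and 3.47 FPKM in the maternal knockout, against 3.71 and 3.35 FPKM in wild type, where *Zfhx2* had 5.38 FPKM (knockout) and 6.94 FPKM (wild type). *Gm11266*, inside *Nfib*, a nuclear factor of late neurogenesis and gliogenesis, had 3.56 FPKM in maternal knockout and 3.70 FPKM in wild-type brains. *Zeb2os*, opposite *Zeb2*, a repressor in neural crest and interneurons, had 0.331 FPKM in knockout brains, against 0.995 FPKM in wild-type brains in a transcript of 1223 bases, and 0.505 FPKM (knockout) and 0.376 FPKM (wild type) in another of 1736 bases. *Zeb2* had 73.1 FPKM in maternal knockout brains and 68.9 FPKM in wild-type brains.

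*Emx2os*, opposite the cortical homeobox gene *Emx2*, had 0.487 FPKM in maternal knockout and 0.413 FPKM in wild-type brains. No direction was shared by these loci.

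Channels, receptors and synaptic proteins formed a group of 9 partner genes of 323 expressed (2.79%), with 14 members, of which 3 were above 2-fold and 1 below 0.5-fold, where 9.43% and 8.93% of all transcripts were. Their median log2 ratio was −0.46, that of their partners −0.0084. *Nlgn1*, a postsynaptic adhesion protein, faced *A830092H15Rik*, which had 1.49 and 0.482 FPKM in the maternal knockout in its transcripts, against 2.16 and 0.771 FPKM in wild type. *Gm20387*, at the start of the metabotropic glutamate receptor gene *Grm7*, had 0.577 FPKM in maternal knockout brains and 1.002 FPKM in wild-type brains, and *Grm7* had 17.7 FPKM (knockout) and 17.6 FPKM (wild type). These 3 transcripts were picked after their values were seen.

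*D430036J16Rik*, at the serotonin receptor gene *Htr1b*, contributed 4 of the 14 members, with 1.13, 0.481, 0.628 and 0.285 FPKM in the maternal knockout, against 1.63, 0.514, 0.304 and 0.481 FPKM in wild type. The group's median covers 9 antisense genes, of which some contribute several members.

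The other groups were small, and their counts stand beside 9.43% above 2-fold and 8.93% below 0.5-fold over all transcripts. Partners in kinase, phosphatase and growth factor signalling (15 genes) faced 17 members, with none above 2-fold and 3 below 0.5-fold, among them *Ppp1r18os* with 0.135 FPKM in maternal knockout and 0.497 FPKM in wild-type brains. RNA processing and translation (8 genes) faced 9 members with 0 above and 1 below, axon guidance and adhesion (6 genes) 6 members with 0 above and 2 below, and mitochondrial proteins (3 genes) 4 members with none past either fold. Cytoskeleton and trafficking (11 genes) faced 14 members and zinc finger proteins (8 genes) 8 members, each with 1 above and 0 below. Cell cycle and chromatin (4 genes) and the ubiquitin system (5 genes) had none past either fold. In the cell cycle and chromatin list, 3 members span histone genes with near-identical copies, whose values are uncertain.

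The members named after a coding gene numbered 63 transcripts of 45 genes, with 8 above 2-fold and 5 below 0.5-fold, where 9.43% and 8.93% of all transcripts were, and a median log2 ratio of 0.050. Beside those described, *Sp3os*, at the start of the transcription factor gene *Sp3*, had 7.95 FPKM in knockout brains, against 5.11 FPKM in wild-type brains, in its main transcript, a ratio of 1.56, and *Sp3* had 24.4 FPKM (knockout) and 24.5 FPKM (wild type). *Rab10os* had 5 members with ratios from 0.714 to 1.15. *Prox1os*, opposite *Prox1*, which marks dentate granule neurons, had 1.13 FPKM in knockout brains, against 1.80 FPKM in wild-type brains, while *Prox1* had 6.38 FPKM (knockout) and 6.23 FPKM (wild type). The member of *Chrna1os* had 1.16 FPKM in maternal knockout brains and 0.386 FPKM in wild-type brains, and the sum over both *Chrna1os* transcripts was 1.16 FPKM (knockout) and 0.667 FPKM (wild type), a ratio of 1.74. *Zfp652os* had 0.794 FPKM (knockout) and 0.289 FPKM (wild type).

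*H3f3aos*, opposite the start of the histone H3.3 gene *H3f3a*, had 1.45 FPKM in maternal knockout and 1.65 FPKM in wild-type brains, which was 0.575% of *H3f3a*. *Igf2os*, opposite the imprinted growth factor gene *Igf2*, had 0.386 FPKM in knockout brains, against 0.340 FPKM in wild-type brains, and *Igf2* had 66.9 FPKM (knockout) and 70.9 FPKM (wild type). *Brip1os*, *Taco1os* and *Zbtb11os1* had ratios of 0.844, 0.876 and 0.920.

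Since the deleted gene makes miR-125b-5p, the spliced sequences of the members were searched for CTCAGGG, the 7 bases that pair with positions 2 to 8 of the microRNA. The microRNA is printed with this seed in capitals, from RefSeq (GRCm38.p6), and below it are sites in members that carry a match, in capitals, with 11 bases on either side (GENCODE M21 transcripts, GRCm38). They stand for an abundant homeobox antisense RNA, the longest *4933431E20Rik* transcript, and a low and a high ratio.
mmu-miR-125b-5p: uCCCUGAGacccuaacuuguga
Dlx6os1 (match at chr6:6824115-6824121, - strand): ttggatcaggaCTCAGGGgcaaggctaag
4933431E20Rik (match at chr3:107891412-107891418, - strand): ctgacttaggaCTCAGGGcttctgggtac
A430027H14Rik (match at chr1:189344256-189344262, + strand): gtcacagcactCTCAGGGctgcttgattt
Gm15952 (match at chr3:35933096-35933102, + strand): ctgcgcccccaCTCAGGGcgccctcgtca
A match was present in 77 of the 470 members with a sequence (16.4%), against 20.5% of 50633 transcripts above the minimum. The annotated locus was the deposited one in 460 of these members. Members with a match had a median length of 2148 bases and those without one of 818 bases. There were 94 matches in all, 0.138 per kb of member sequence against 0.113 per kb over all transcripts, and the reverse complement CCCTGAG also had 94 matches in members, 0.138 per kb against 0.149 per kb.

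Members with a match had a median log2 ratio of 0.018 and those without one of −0.0090, and over all transcripts the values were −0.0035 and 0.0087. Above 2-fold were 5 of the 77 (6.49%) and 9.67% of the members without a match, against 6.29% and 10.2% over all transcripts. Below 0.5-fold were 4 of the 77, against 609 of the 10361 transcripts with a match over all. *4933431E20Rik*, whose transcript of 5407 bases holds 3 matches, had 5.08 FPKM in maternal knockout brains and 5.47 FPKM in wild-type brains in that transcript. Its transcript of 3845 bases, which also holds the printed site, had 0.881 FPKM (knockout) and 1.63 FPKM (wild type). *Gm15952* had 1.23 FPKM in maternal knockout and 0.421 FPKM in wild-type brains in a transcript of 556 bases with the printed site. Another *Gm15952* transcript with the same site, of 490 bases, had 0.367 FPKM (knockout) and 0.335 FPKM (wild type). A match of letters does not show that the microRNA binds there. The paternal *Mir125b-2* allele was intact in the knockout, and the paper found both alleles expressed in mouse cerebral cortex. The paper also names miR-125a and miR-125b-1 as homologs of miR-125b-2. The level of miR-125b-5p in these brains is not known, so the comparison is not one with brains shown to lack it.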

How the data were processed

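Total RNA of maternal knockout and wild-type mice was measured in 1 library per genotype, each a pool of 6 animals. After depletion of ribosomal RNA and strand-specific library preparation, the authors used Trimmomatic 0.36 for trimming, HISAT2 2.1.0 for alignment (GRCm38.p5) and Cuffdiff for the deposited FPKM of each Ensembl transcript. For Cuffdiff, the version, strand setting and library scaling are not given in the sources used. The deposited table also holds the authors' ratio of knockout to wild type, its log2 value, a p-value and a q-value, which were not used. Read counts were not analysed, so the depth is unknown and no interval is given.

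Ratios were taken from FPKM in python 3.11.15 (pandas 2.3.3, numpy 2.4.6), and plots were drawn with matplotlib 3.10.9. Log2 ratios used a pseudocount of 0.1 FPKM, which understates changes of low transcripts, and no fold is given against the floor. Past either fold means a ratio above 2 or below 0.5, with transcripts at the floor counted. Partners were protein-coding rows of the other strand, summed per gene, whose gene type covers noncoding isoforms of coding genes. Exons, UTRs and spliced sequences came from GENCODE M21 on GRCm38, where 460 of 470 members found had the same locus, and start sites and the microRNA from RefSeq on GRCm38.p6. Procedures were tested on simulated data. A single library per genotype allows no test, and no p-value was computed.

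Members and lists were chosen with earlier results of these data known. Genes named follow a rule: the 12 highest members, the 8 highest and 8 lowest ratios at a mean of at least 1 FPKM and up to 6 members at the floor in 1 library, the 8 highest shares of the partner at a partner mean of at least 1 FPKM, members named after coding genes and small RNA hosts, pairs with both sides past 2-fold, and their partners. Other genes appear as edge values, members of counted sets or examples of the name lists, and were picked after their values were seen. Alternatives changed the FPKM minimum and its library, the transcript length, rows at the floor, the scaling, the pseudocount and the definition of the partner.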

Additional observations from a re-analysis of the deposited data

How the results depend on the processing

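Of 44 alternatives, 27 left the value within the limits set for a change and 17 moved it. The FPKM minimum decided most. At a mean above 1 FPKM the list had 179 members, with 8 above 2-fold (4.47%) and 6 below 0.5-fold (3.35%). The antisense genes above 2-fold and below 0.5-fold then numbered 5 and 6. At a mean above 0.1 FPKM the list had 853 members. With the minimum set on a single library, the balance followed that library by construction: on the maternal knockout alone 91 members were above 2-fold and 11 below 0.5-fold, with a median log2 ratio of 0.11, and on wild type alone 14 were above and 95 below, with a median of −0.13. With the minimum in both libraries, 14 were above (3.69%) and 11 below (2.90%). Without rows at the floor, 34 were above 2-fold (7.62%) and 25 below 0.5-fold (5.61%). The shares of all transcripts under these filters were not taken, and the 9.43% and 8.93% of the main list do not apply to them. Partners above 0.3 FPKM only, chosen after seeing the data, left 20 members more abundant than the partner. Among the 26 pairs in which both sides differed by more than 1.2-fold, 53.8% had the same direction, against 45.8% of all pairs. So few pairs do not show a change in this share. Scaling, TPM, the pseudocount and transcript length moved none of these values past the limits. No paired analysis was possible because only 1 library stands for a genotype.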

Other observations

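Members were found on every autosome, from 50 on chromosome 3 and 44 on chromosome 1 to 5 on chromosome 19 and 4 on chromosome 15. Chromosome 16, which carries *Mir125b-2*, held 7 members of 6 genes, and none was past 2-fold or 0.5-fold. Over all transcripts above the minimum 18.4% were, and 7 members are too few to tell a difference from that share. *Zbtb11os1*, opposite the start of the zinc finger gene *Zbtb11* and at 55973268 to 55974617, had 2.58 FPKM in maternal knockout and 2.80 FPKM in wild-type brains. *Gm15743*, inside the ketone body dehydrogenase gene *Bdh1*, had 1.46 FPKM in knockout brains, against 1.11 FPKM in wild-type brains, and *Bdh1* had 40.4 FPKM (knockout) and 38.3 FPKM (wild type). *Gm15648*, inside the ubiquitin-conjugating enzyme gene *Ube2l3*, had 1.21 FPKM in maternal knockout brains and 1.04 FPKM in wild-type brains, and *Ube2l3* had 27.4 FPKM (knockout) and 31.6 FPKM (wild type). The transcripts of *Gm15879* had 1.86 and 1.36 FPKM in the maternal knockout, against 1.35 and 1.39 FPKM in wild type. *1700093J21Rik* had 0.837 FPKM in maternal knockout and 0.650 FPKM in wild-type brains, and *Gm15859* had 0.723 FPKM (knockout) and 0.647 FPKM (wild type).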
